A study of Mus musculus with 54 samples.

Results

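The cyclins of the cell cycle were followed at the level of messenger RNA in mouse tissues and cultured fibroblasts after ionizing radiation. The 8 genes were taken by symbol from the deposited table of 13611 genes. They encode the D cyclins (Ccnd1, Ccnd2, Ccnd3), the E cyclins (Ccne1, Ccne2), cyclin A2 (Ccna2) and the B cyclins (Ccnb1, Ccnb2). All 8 passed the filter of a mean of at least 1 FPKM (sequenced fragments per transcript length and library size) in each of the 5 systems. The irradiated libraries came from thymus, spleen and both small and large intestine of C57B6 mice, and from the mouse embryonic fibroblast line NIH3T3, after 10 Gy of gamma radiation. They were taken hourly up to 8 h and once more at 24 h, and NIH3T3 also hourly from 9 to 12 h. The reference of each system was 1 library at 0 h, labelled as not treated. This gave 10 libraries per tissue and 14 of NIH3T3, with 1 per time point and 54 in all. Age and sex of the mice are not given in the labels used here, nor is it said whether libraries were single or pooled animals. Only 0 h was unirradiated, so time, handling and radiation cannot be told apart.

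Cyclins switch on the cyclin-dependent kinases that drive a cell through division. Cyclins D1, D2 and D3 pair with Cdk4 and Cdk6 in G1 and phosphorylate the retinoblastoma protein, which frees the E2F transcription factors. Cyclins E1 and E2, themselves products of E2F target genes, pair with Cdk2 at the start of DNA replication, cyclin A2 serves Cdk2 in S phase and Cdk1 later, and cyclins B1 and B2 carry Cdk1 into mitosis. After DNA damage p53 induces p21 (Cdkn1a), which inhibits these kinases. Cyclin proteins are also regulated by their destruction, so their mRNA does not report their protein. In bulk RNA, fewer cycling cells and less of an mRNA per cell cannot be told apart.

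The mRNAs of cyclins A2, B1 and B2 were lower than at 0 h in all 5 libraries at 1 to 5 h in every one of the 5 systems. Each system has 1 library at 0 h, and the fall passed the test for Ccnb1 in thymus and for all 3 in NIH3T3. At 6 to 8 h they parted. Ccna2 and Ccnb1 of small intestine and Ccnb1 of NIH3T3 stood above every library of 1 to 5 h. Ccna2 and Ccnb2 of thymus stood below every one. Of these, Ccnb1 of small intestine and Ccna2 of thymus passed the test, where 0.518% and 32.1% of all genes were called. The share of all genes whose libraries separate in this way is not given here, so separation alone is a description. Ccne2 and Ccnd3 also fell in thymus, and in spleen and thymus Ccnd1 rose. These statements are taken up gene by gene. Fold changes are on the log2 scale of FPKM + 1, and limma gave their standard error (±). Their p-values were adjusted over all genes tested and called below 0.05. Levels are in FPKM, which is per transcript length. Libraries of neighbouring hours served as replicates.

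**Figure D1:**
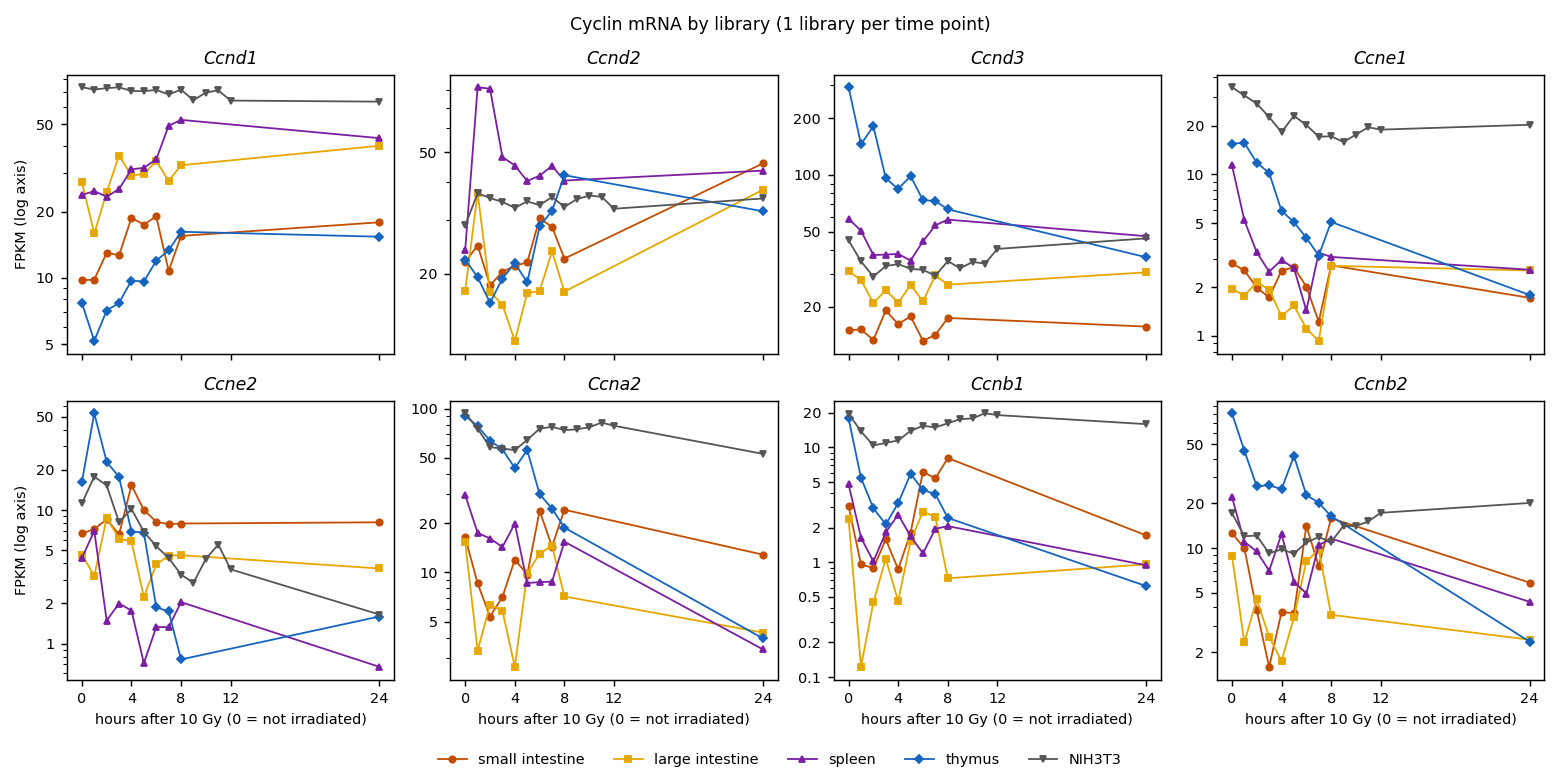
FPKM of each of the 8 cyclin genes (log axis) against hours after 10 Gy, with 0 h not irradiated. Points are single libraries of small intestine, large intestine, spleen, thymus and NIH3T3. The Ccnd3 line of thymus runs to 36.6 FPKM at 24 h, against 292 at 0 h, and the Ccnb1 line of small intestine peaks at 8.09 at 8 h.

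The labelled tissues carried their own markers, with several libraries standing apart. The summed FPKM of 6 enterocyte genes lay between 42930 and 59236 in small intestine, but it also reached 5506 in the 24 h thymus library, against 5.13 to 19.4 at 1 to 8 h, and 20773 in the 2 h large intestine library. In the 1 h large intestine library this sum was 86.5, and that of 6 colon epithelium genes 6069, against 25346 at 0 h. The 6 h spleen library held 6 exocrine pancreas genes at 58886 in sum, against 1.65 in the lowest library at 6 to 8 h. Results on the large intestine and spleen windows are therefore also given without the 1 h and 2 h large intestine and the 6 h spleen libraries where that changed a call or moved a called value by over 1.5 times. The 24 h thymus library has no second library at its time. Of the 0 h libraries, that of spleen held the 6 colon epithelium genes at 124 FPKM in sum, against 58.4 at 1 h and 0.545 to 4.46 later, and that of large intestine held 4 keratinocyte genes at 27.6, against 1.19 to 4.84 later. Each comparison with 0 h in spleen or large intestine rests on that library, and the part of these transcripts in them was not tested. The commonest ratio of the lowest values to those at 0 h, a rough measure of relative depth that is higher with fewer fragments, was 2.03 on the log2 scale at 8 h and 1.68 at 24 h in thymus. It lay between -0.93 and 1.03 in the other irradiated libraries.

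Both B cyclin genes carry CCAAT boxes and a CHR-like hexamer close to their annotated start, the layout described for genes that the NF-Y factor and the MuvB complexes control in G2 and M. Their promoters are shown because the results turn on the fall and return of the B cyclins. Each run covers 130 bases before to 20 bases after the RefSeq start (GRCm38.p6), read 5′ to 3′ on the gene's minus strand, with each CCAAT box and either hexamer, TTTGAA or the variant TTTAAA, in capitals. The Ccnb1 run is chr13:100786467-100786616 and the Ccnb2 run is chr9:70421535-70421684.
Ccnb1: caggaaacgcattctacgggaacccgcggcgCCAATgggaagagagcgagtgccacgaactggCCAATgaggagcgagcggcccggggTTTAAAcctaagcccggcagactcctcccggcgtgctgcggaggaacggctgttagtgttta
Ccnb2: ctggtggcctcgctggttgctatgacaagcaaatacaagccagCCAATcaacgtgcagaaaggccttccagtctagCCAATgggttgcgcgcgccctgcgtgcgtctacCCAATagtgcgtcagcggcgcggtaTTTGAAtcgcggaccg
The CCAAT boxes of Ccnb1 begin 99 and 67 bases before the start, 32 bases apart, and TTTAAA begins 42 bases before it. Ccnb2 has 3 CCAAT boxes, beginning 87, 54 and 21 bases before the start and spaced by 33 bases each time, and TTTGAA begins at base 5 of the transcript. A further TTTGAA of Ccnb2 begins 167 bases before the start, outside the printed run.

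Both strands of the windows from 250 bases before to 50 after the start were searched, with any overlap between motifs allowed. The table held windows for 4 of the 8 genes, Ccnd3 with 2 starts. Of all 32851 windows, 37.4% held CCAAT and 11.7% held it at least 2 times. TTTGAA was in 17.9% of them and TTTAAA in 13.2%, and at least 2 CCAAT with either hexamer in 3.13%. Among the member windows that combination was found in Ccnb1 and Ccnb2. Ccne1 held TTTAAA 15 bases before its start and no CCAAT, and of the 2 Ccnd3 windows 1 held a single CCAAT. The E2F-like TTTNNCGC, in 5.17% of all windows, was in none of the 5 member windows. A match describes letters, not a bound site.

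**Figure D2:**
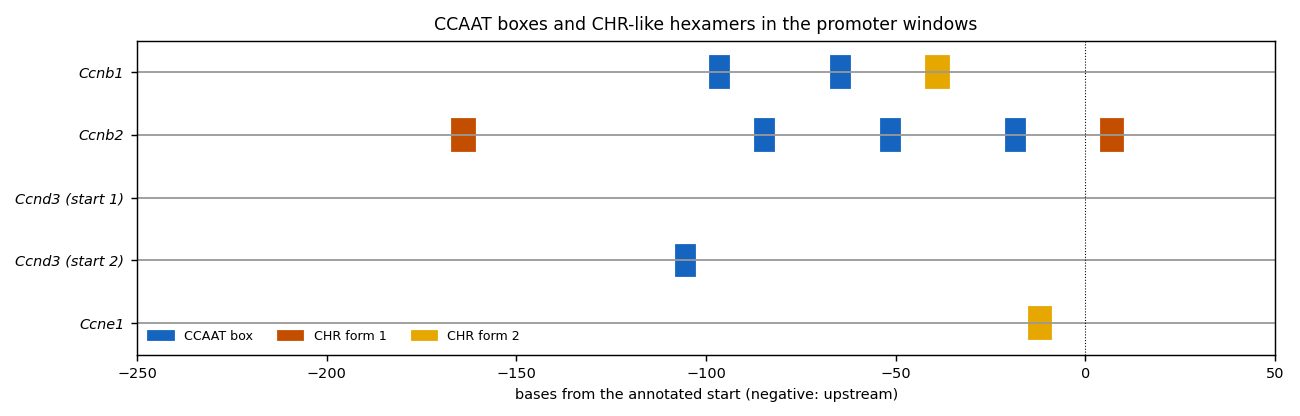
Positions of CCAAT boxes and of the hexamers TTTGAA (drawn as CHR form 1) and TTTAAA (drawn as CHR form 2) from 250 bases before to 50 after the RefSeq start in the 5 member windows. The boxes of Ccnb1 lie 32 bases apart and those of Ccnb2 33, and the first Ccnd3 window holds none of the motifs.

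Of the D cyclins, Ccnd3 (chromosome 17, 47505051 to 47599689, GRCm38.p6) was the one that marked thymus. Cyclin D3 is required for the expansion of immature thymocytes in mice. At 0 to 8 h in turn and at 24 h, Ccnd3 stood at 292, 146, 181, 95.98, 84.4, 98.6, 73.5, 72.8, 65.8 and 36.6 FPKM in thymus. Every irradiated thymus library was below 0 h, and all 3 at 6 to 8 h were below all 5 at 1 to 5 h. It averaged 121 ± 41.01 FPKM at 1 to 5 h (SD, n = 5), a fall of 1.32 ± 0.19 (adjusted p = 0.000142). At 6 to 8 h it averaged 70.7 ± 4.28 (SD, n = 3), a further fall of 0.71 ± 0.13 (adjusted p = 0.000149) against 1 to 5 h. The second call was lost when 3 to 5 h alone served as the earlier libraries (adjusted p = 0.0604). At 24 h, Ccnd3 was lower by 2.96 ± 0.24 (adjusted p = 2.2e-09) than at 0 h.

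Spleen Ccnd3 took another course, with 58.6, 50.5, 37.6, 37.8, 38.1, 35.2, 44.5, 54.04, 57.98 and 47.3 FPKM at 0 to 8 h in turn and at 24 h. It dipped at 2 to 5 h and stood near the 0 h level at 7 and 8 h. The change at 1 to 5 h was -0.56 ± 0.19 (adjusted p = 0.0903), and without the 1 h library it passed the test (adjusted p = 0.0312). Between 1 to 5 h and 6 to 8 h spleen Ccnd3 rose by 0.38 ± 0.13 (adjusted p = 0.0268), a call that was lost without the 3 h, 5 h, 7 h or 8 h library (adjusted p between 0.0511 and 0.145), under quantile normalization (0.0629) and in a fit of spleen alone (0.0637). The difference between spleen and thymus in this change was itself called (1.09 ± 0.18, adjusted p = 0.000543). In the intestines Ccnd3 ranged from 13.2 to 19.1 FPKM in small intestine and from 20.9 to 30.8 in large intestine with no call in any window. Set against the intestines, the change of spleen and thymus at 1 to 5 h against 0 h was lower by 0.82 ± 0.19 (adjusted p = 0.0408), but leaving out single libraries took this call away in 10 of 20 cases (adjusted p up to 0.0938).

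Ccnd2 (chromosome 6, 127125162 to 127152188), the D cyclin that B cells use on antigen receptor signals, rose in spleen, with its highest values at 1 and 2 h. Its spleen values were 23.95, 81.7, 80.8, 48.3, 45.3, 40.2, 41.9, 45.1, 40.4 and 43.5 FPKM at 0 to 8 h in turn and at 24 h. All 9 irradiated spleen libraries were above 0 h, and the 1 h and 2 h libraries stood well above the rest. The rise at 1 to 5 h was 1.21 ± 0.26 (adjusted p = 0.00604). The later change against 1 to 5 h was -0.41 ± 0.17 (adjusted p = 0.0827), which passed the test without the 5 h library (adjusted p = 0.0284), under quantile normalization (0.0201) and in a fit of spleen alone (0.0197). The summed FPKM of 6 B cell markers in spleen was 2206 at 0 h, 574 to 1710 at 1 to 5 h and 317 to 334 at 6 to 8 h. The part of this shift in cell markers in the spleen results was not tested.

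In thymus, Ccnd2 moved late. It stood at 22.2, 19.5, 16.1, 19.3, 21.7, 18.7, 28.6, 32.1, 42.1 and 32.04 FPKM at 0 to 8 h in turn and at 24 h. All 3 libraries at 6 to 8 h were above all 5 at 1 to 5 h, and the rise was 0.80 ± 0.17 (adjusted p = 0.00104). The change in spleen minus that in thymus was -1.21 ± 0.25 (adjusted p = 0.00272). In the intestines the highest Ccnd2 values were those at 24 h, 46.0 FPKM in small and 37.7 in large intestine, against 21.8 and 17.6 at 0 h. Next in large intestine was 36.9 in the 1 h library that was low in epithelial genes. The 24 h differences were 1.04 ± 0.34 and 1.06 ± 0.34 (adjusted p = 0.415 and 0.293) and did not pass the test. NIH3T3 had its highest Ccnd2 value, 36.7 FPKM, at 1 h and its lowest, 28.8, at 0 h, with no call.

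Ccnd1 (chromosome 7, 144929931 to 144939831), the D cyclin that growth factor signals induce in fibroblasts and many epithelia, rose at 6 to 8 h in both lymphoid organs. In thymus it stood at 7.70, 5.18, 7.11, 7.71, 9.73, 9.62, 11.99, 13.3, 16.2 and 15.4 FPKM at 0 to 8 h in turn and at 24 h. Spleen held 23.8, 24.8, 23.4, 25.4, 31.2, 31.7, 34.6, 49.2, 52.3 and 43.2 FPKM at the same times. In both organs all 3 libraries at 6 to 8 h were above all 5 at 1 to 5 h. The rise was 0.76 ± 0.18 (adjusted p = 0.00207) in thymus and 0.70 ± 0.18 (adjusted p = 0.00546) in spleen. With 3 to 5 h alone as the earlier libraries the thymus call was lost (adjusted p = 0.0543). Set against the intestines, this change in spleen and thymus was higher by 0.57 ± 0.18 (adjusted p = 0.0176), and 0.79 without the 3 libraries with transcripts or losses noted above. Within the intestines the change was 0.07 ± 0.18 in small and 0.25 ± 0.18 in large intestine. Small intestine was not flat against 0 h: all 8 of its libraries at 1 to 8 h were above 0 h, with no call. Its mean Ccnd1 was at 147% of 0 h at 1 to 5 h and 155% at 6 to 8 h, and the 24 h library at 184%.

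Of the 5 systems, NIH3T3 had the highest Ccnd1 levels and the narrowest relative range. Its values ran 73.7, 71.9, 72.99, 73.6, 70.9, 70.7, 71.6, 68.3, 71.8, 64.3, 69.7, 71.3, 64.1 and 63.4 FPKM at 0 to 12 h in turn and at 24 h. No window passed the test. The fibroblast markers, 5 genes, summed to 1656 FPKM at 24 h, against 882 at 0 h in NIH3T3.

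As a family, the D cyclins divided differently in each system. At 1 to 8 h Ccnd3 made up a median of 75.3% of the summed FPKM of the 3 genes in thymus, with a range of 53.0% to 88.7%. By its median at 1 to 8 h Ccnd1 was the leading share in NIH3T3 (51.6%) and large intestine (41.7%). Ccnd2 was the leading median share in small intestine (40.8%) and spleen (38.5%). In spleen Ccnd2 led at 1 to 5 h only. Ccnd3 led there at 0 h (55.1%), 6 h (36.7%), 7 h (36.4%), 8 h (38.5%) and 24 h (35.3%). In large intestine Ccnd3 led at 0 h (40.7%) and 7 h (36.4%), and Ccnd2 at 1 h (45.8%). The summed FPKM of the 3 at 1 to 8 h had a median of 137 in NIH3T3, 131 in spleen, 124 in thymus, 74.6 in large and 54.4 in small intestine. In thymus this sum ranged from 114 to 205, in NIH3T3 from 133 to 143.

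**Figure D3:**
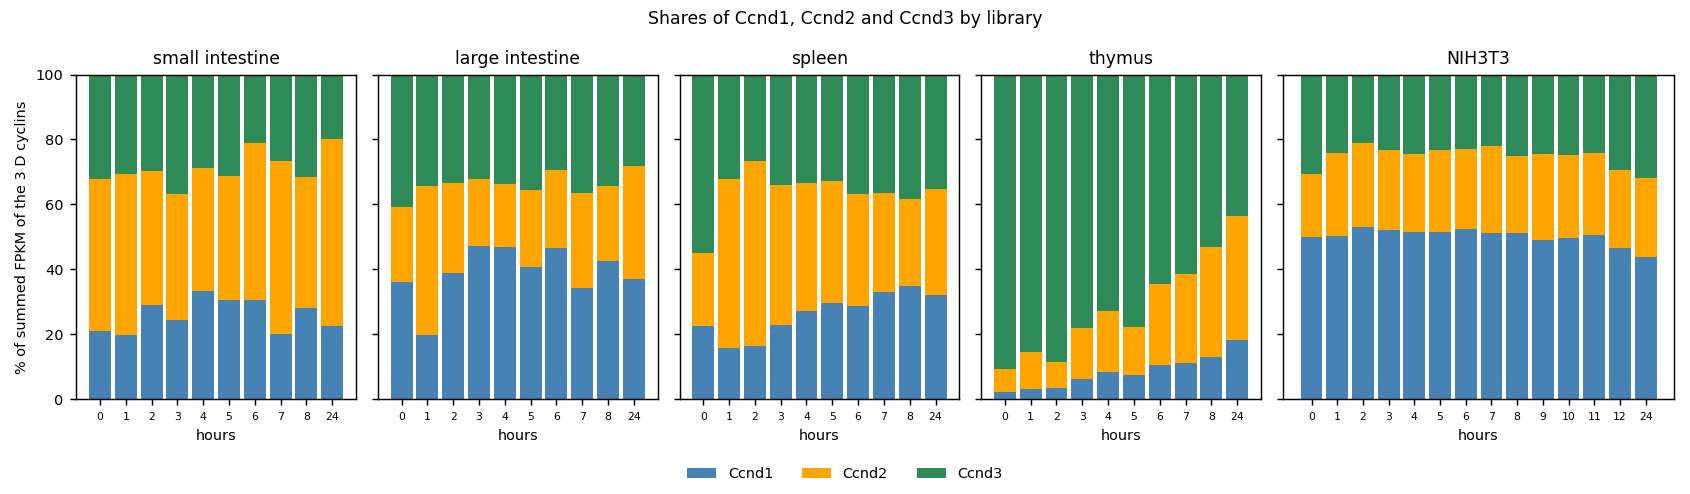
Share of Ccnd1, Ccnd2 and Ccnd3 in their summed FPKM, 1 bar per library by hour, for each system. In thymus the Ccnd3 share shrinks over the hours as Ccnd1 and Ccnd2 take more, while in NIH3T3 Ccnd1 stays the largest share throughout.

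Among the E cyclins, Ccne2 (chromosome 4, 11190433 to 11204779) had a brief peak in thymus. It stood at 16.2, 53.1, 22.97, 17.7, 6.91, 6.79, 1.87, 1.74, 0.762 and 1.60 FPKM at 0 to 8 h in turn and at 24 h. The 1 h library was the highest of all 54, and all 3 at 6 to 8 h were below all 5 at 1 to 5 h. The mean of 1 to 5 h differed from 0 h by -0.01 ± 0.57 (adjusted p = 0.999), and the window holds libraries on both sides of 0 h. It fell by 2.84 ± 0.38 (adjusted p = 5.42e-06) at 6 to 8 h against 1 to 5 h, the largest change of any of the 8 genes in that comparison in the 5 systems. NIH3T3 followed with 11.2, 17.8, 15.3, 8.09, 10.2, 6.89, 5.37, 4.38, 3.29, 2.85, 4.31, 5.52, 3.60 and 1.65 FPKM at 0 to 12 h in turn and at 24 h. Here too the 1 h and 2 h libraries were above 0 h and the 6 to 8 h libraries below all of 1 to 5 h, a fall of 1.18 ± 0.17 (adjusted p = 0.0125). This call was lost without the 8 h library (adjusted p = 0.0735) and with 3 to 5 h alone as the earlier libraries (0.13).

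In the intestines Ccne2 did not follow that course. Small intestine held 6.58 to 15.4 FPKM over 0 to 24 h, with its highest value at 4 h, and large intestine 2.24 to 8.72. Spleen held 6.99 FPKM at 1 h, against 4.37 at 0 h, and 0.67 to 2.05 from 2 h on. The change of Ccne2 in spleen and thymus minus that in the intestines at 6 to 8 h was -1.42 ± 0.38 (adjusted p = 0.00662). Spleen alone changed by -0.28 ± 0.38, and spleen minus thymus by 2.56 ± 0.53 (adjusted p = 0.00345), so the lymphoid value averages unequal changes.

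Ccne1 (chromosome 7, 38097984 to 38107490) had no such peak. Spleen Ccne1 was 11.4, 5.20, 3.30, 2.50, 2.96, 2.63, 1.44, 3.28, 3.09 and 2.57 FPKM at 0 to 8 h in turn and at 24 h. All 9 irradiated spleen libraries were below 0 h, with a fall of 1.56 ± 0.35 (adjusted p = 0.00856) at 1 to 5 h, which missed the threshold in a fit of spleen alone (adjusted p = 0.052). Thymus Ccne1 was 15.5, 15.7, 11.8, 10.2, 5.96, 5.07, 4.05, 3.15, 5.08 and 1.79 FPKM at the same times. It was still at 15.7 FPKM at 1 h, against 15.5 at 0 h. The fall at 6 to 8 h against 1 to 5 h was 1.00 ± 0.24 (adjusted p = 0.00224), not called with 3 to 5 h alone as the earlier libraries (adjusted p = 0.101). NIH3T3, with the highest Ccne1 level, stood between 15.9 and 20.3 FPKM from 6 h on, against 34.7 at 0 h. At 1 to 5 h it differed from 0 h by -0.51 ± 0.14 (adjusted p = 0.0759), and this was called without the 1 h library (adjusted p = 0.0484). Its change at 6 to 8 h was -0.39 ± 0.10 (adjusted p = 0.0502), and it passed the test without the 4 h, 5 h or 6 h library (adjusted p between 0.0274 and 0.0484). Both intestines held 0.93 to 2.81 FPKM.

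Ccnb1 (chromosome 13, 100778739 to 100786486), whose product triggers mitosis with Cdk1, was low early and rose at 6 to 8 h in small intestine. It stood at 3.07, 0.961, 0.889, 1.58, 0.869, 1.81, 6.15, 5.38, 8.09 and 1.72 FPKM at 0 to 8 h in turn and at 24 h. The 6, 7 and 8 h libraries were at 200.1%, 175% and 263% of 0 h and above all 5 libraries of 1 to 5 h, which were at 28.3% to 58.8%. The means were 6.54 ± 1.40 FPKM at 6 to 8 h (SD, n = 3) and 1.22 ± 0.44 at 1 to 5 h (SD, n = 5), a rise of 1.77 ± 0.27 (adjusted p = 0.00269). Without the 8 h library the adjusted p was 0.0652. At 24 h it was back to 55.8% of 0 h. Markers of intestinal stem cells, 3 genes found of 4, summed to 188 FPKM at 0 h, 99.98 to 208 at 1 to 5 h and 67.7 to 121 at 6 to 8 h. The same genes summed to 116 to 135 in spleen at 6 to 8 h, so they are not particular to intestine here. Whether a shift in cells had a part in the Ccnb1 rise was not tested.

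Ccna2 (chromosome 3, 36564865 to 36573038) and Ccnb2 (chromosome 9, 70407689 to 70421554) had values of the same shape in small intestine. Ccna2 was 16.3, 8.57, 5.37, 7.08, 11.96, 9.71, 23.8, 14.4, 24.1 and 12.8 FPKM at 0 to 8 h in turn and at 24 h, with every 6 to 8 h library above every 1 to 5 h library. Ccnb2 was 12.6, 10.01, 3.81, 1.59, 3.72, 3.64, 14.1, 7.57, 15.9 and 5.86 FPKM, with the 7 h library below that of 1 h. Their changes at 6 to 8 h were 1.20 ± 0.31 and 1.39 ± 0.34 (adjusted p = 0.0786 and 0.0637), and neither passed the test. Ccnb2 passed it without the small intestine library of 1 h (0.029) or 7 h (adjusted p = 0.045), and without the 3 large intestine and spleen libraries that share the fit (0.0402).

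Large intestine had lower levels and no call in any window. Its Ccnb1 values were 2.39, 0.123, 0.447, 1.07, 0.458, 1.52, 2.76, 2.48, 0.725 and 0.959 FPKM at 0 to 8 h in turn and at 24 h. The 6 h and 7 h libraries stood at 116% and 104% of 0 h and the 8 h library at 30.4%, so the 6 to 8 h window overlapped 1 to 5 h. Ccna2 ran 15.2, 3.33, 6.33, 5.82, 2.65, 9.87, 13.03, 14.6, 7.13 and 4.29 FPKM at the same times. Its change at 6 to 8 h was 0.98 ± 0.31 (adjusted p = 0.142), which passed the test without the 5 h library (adjusted p = 0.0372). Ccnb2 changed by 1.01 ± 0.34 and Ccnb1 by 0.77 ± 0.27, and without the 1 h and 2 h libraries by 1.13 and 0.52.

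**Figure D4:**
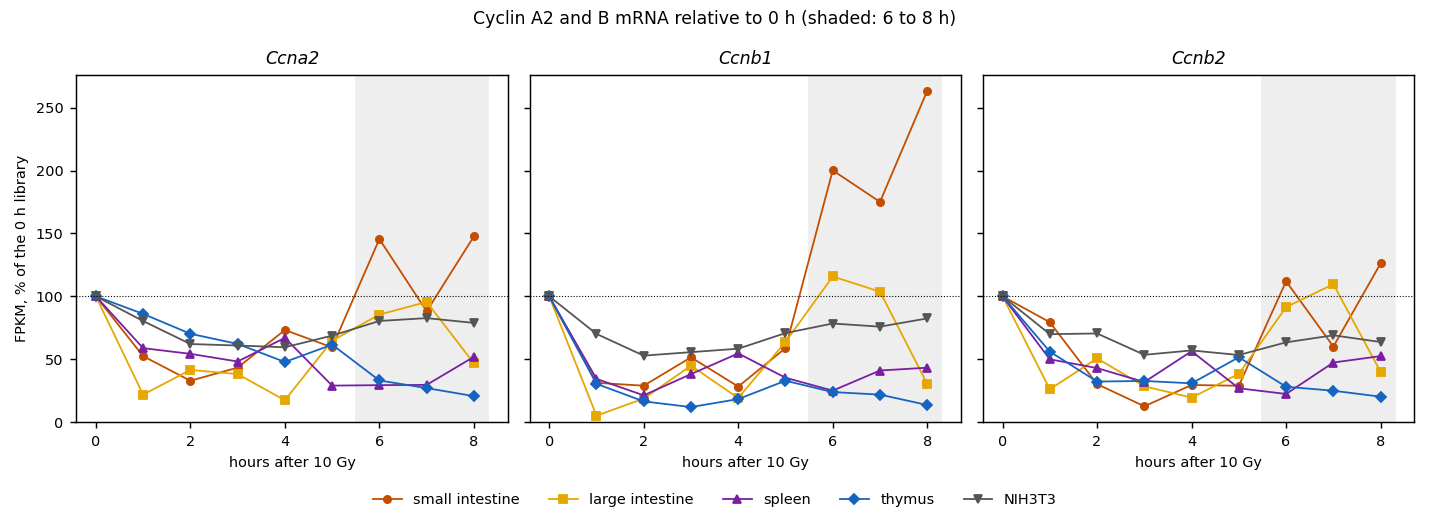
FPKM of Ccna2, Ccnb1 and Ccnb2 as a percentage of the 0 h library of the same system, from 0 to 8 h, with 6 to 8 h shaded. Points are single libraries. Small intestine Ccnb1 reaches 263% at 8 h, while thymus Ccna2 is at 20.7% then.

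Thymus values went down and stayed below 0 h. Ccnb1 stood there at 17.9, 5.44, 2.95, 2.14, 3.28, 5.89, 4.27, 3.92, 2.43 and 0.62 FPKM at 0 to 8 h in turn and at 24 h. It was at 30.4% of 0 h already at 1 h. The change at 1 to 5 h was -1.999 ± 0.40 (adjusted p = 0.00464), not called with a pseudocount of 0.1 (adjusted p = 0.0557) or in a fit of thymus alone (0.057). Ccna2 was at 90.7, 78.1, 63.7, 56.4, 43.4, 55.9, 30.03, 24.5, 18.8 and 3.96 FPKM at the same times. All 3 of its libraries at 6 to 8 h were below all 5 at 1 to 5 h, a fall of 1.25 ± 0.31 (adjusted p = 0.00343). Ccnb2 was 80.95, 45.4, 26.1, 26.5, 24.96, 41.7, 22.8, 20.2, 16.4 and 2.35 FPKM and also did not overlap between these windows, though its change of -0.67 ± 0.34 missed the threshold (adjusted p = 0.141). The T cell and thymocyte markers, 5 genes found of 6, summed in thymus to 1430 FPKM at 0 h, 1239 to 1423 at 1 to 5 h and 688 to 860 at 6 to 8 h. The keratinocyte list, 4 genes found of 5 and led in thymus by Krt5 and Krt14, went the other way, with sums of 156 FPKM at 0 h, 128 to 203 at 1 to 5 h, 261 to 492.95 at 6 to 8 h and 413 at 24 h. Whether these shifts in markers had a part in the thymus results, the rises of Ccnd1 and Ccnd2 included, was not tested.

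In spleen neither a return nor a further fall of these mRNAs passed the test. Ccna2 was 29.7, 17.4, 16.1, 14.3, 19.9, 8.61, 8.72, 8.78, 15.4 and 3.39 FPKM at 0 to 8 h in turn and at 24 h. Ccnb1 ran 4.77, 1.64, 1.02, 1.82, 2.61, 1.69, 1.20, 1.96, 2.07 and 0.941 FPKM and Ccnb2 22.1, 11.04, 9.50, 7.04, 12.5, 5.95, 4.95, 10.5, 11.6 and 4.36 FPKM. All irradiated spleen libraries of the 3 genes were below 0 h, and none of the 3 passed the test at 1 to 5 h (changes of -0.96, -1.09 and -1.22) or at 6 to 8 h (-0.44, 0.00 and -0.06).

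The parting of the tissues between 1 to 5 h and 6 to 8 h was tested directly. In spleen and thymus together, minus the intestines, the change was -1.93 ± 0.31 for Ccna2 (adjusted p = 8.06e-05), -1.31 ± 0.27 for Ccnb1 (adjusted p = 0.000792) and -1.57 ± 0.34 for Ccnb2 (adjusted p = 0.00143). Without the 3 libraries noted above the values were -1.83, -1.11 and -1.46, and each still passed the test. In that setting Ccnb1 changed by -0.08 in thymus, 0.15 in spleen, 1.77 in small and 0.52 in large intestine. Its difference is therefore no called fall of Ccnb1 in either lymphoid organ. Spleen and thymus were not shown to differ from each other in these 3 genes (differences of 0.81 ± 0.44, 0.08 ± 0.38 and 0.62 ± 0.48). At 1 to 5 h against 0 h none of the 3 differed by test between the lymphoid organs and the intestines.

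In NIH3T3 the 3 mRNAs fell at 1 to 5 h. From 6 to 12 h every value stayed below 0 h other than those of Ccnb1 at 11 h and Ccnb2 at 12 h, and at 24 h Ccna2 was below all of its 1 to 5 h libraries. Ccna2 was 93.7, 75.4, 58.2, 57.1, 55.8, 64.5, 75.4, 77.5, 73.9, 74.8, 76.9, 82.2, 78.6 and 52.97 FPKM at 0 to 12 h in turn and at 24 h. Ccnb1 was 19.7, 13.8, 10.4, 10.96, 11.5, 13.95, 15.5, 14.96, 16.2, 17.6, 17.9, 19.9, 19.1 and 15.97 FPKM and Ccnb2 17.2, 12.05, 12.1, 9.22, 9.82, 9.19, 10.9, 11.9, 10.97, 14.2, 14.1, 15.1, 17.3 and 20.2 FPKM at the same times. Against 0 h, the 1 to 5 h libraries were lower by 0.59 ± 0.12 (adjusted p = 0.0242) for Ccna2, 0.67 ± 0.15 (adjusted p = 0.0343) for Ccnb1 and 0.68 ± 0.12 (adjusted p = 0.0181) for Ccnb2. The calls of Ccna2 and Ccnb1 were lost without the 4 h library (adjusted p = 0.0567 and 0.0634), that of Ccna2 under quantile normalization (0.105) and that of Ccnb1 with no filter (0.0583). Between 6 to 8 h and 1 to 5 h Ccna2 and Ccnb1 differed by 0.29 ± 0.08 and 0.34 ± 0.10 (adjusted p = 0.0729 and 0.0777). Every Ccnb1 library at 6 to 8 h was above every one at 1 to 5 h, and all were below 0 h. Ccna2 passed the test without the 1 h library (adjusted p = 0.0275) and Ccnb1 without the 5 h library (0.0368). At 11 h and 12 h Ccnb1 stood at 101% and 97.1% of 0 h. Between 9 to 12 h and 6 to 8 h Ccnb2 differed by 0.40 ± 0.08 (adjusted p = 0.353).

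**Figure D5:**
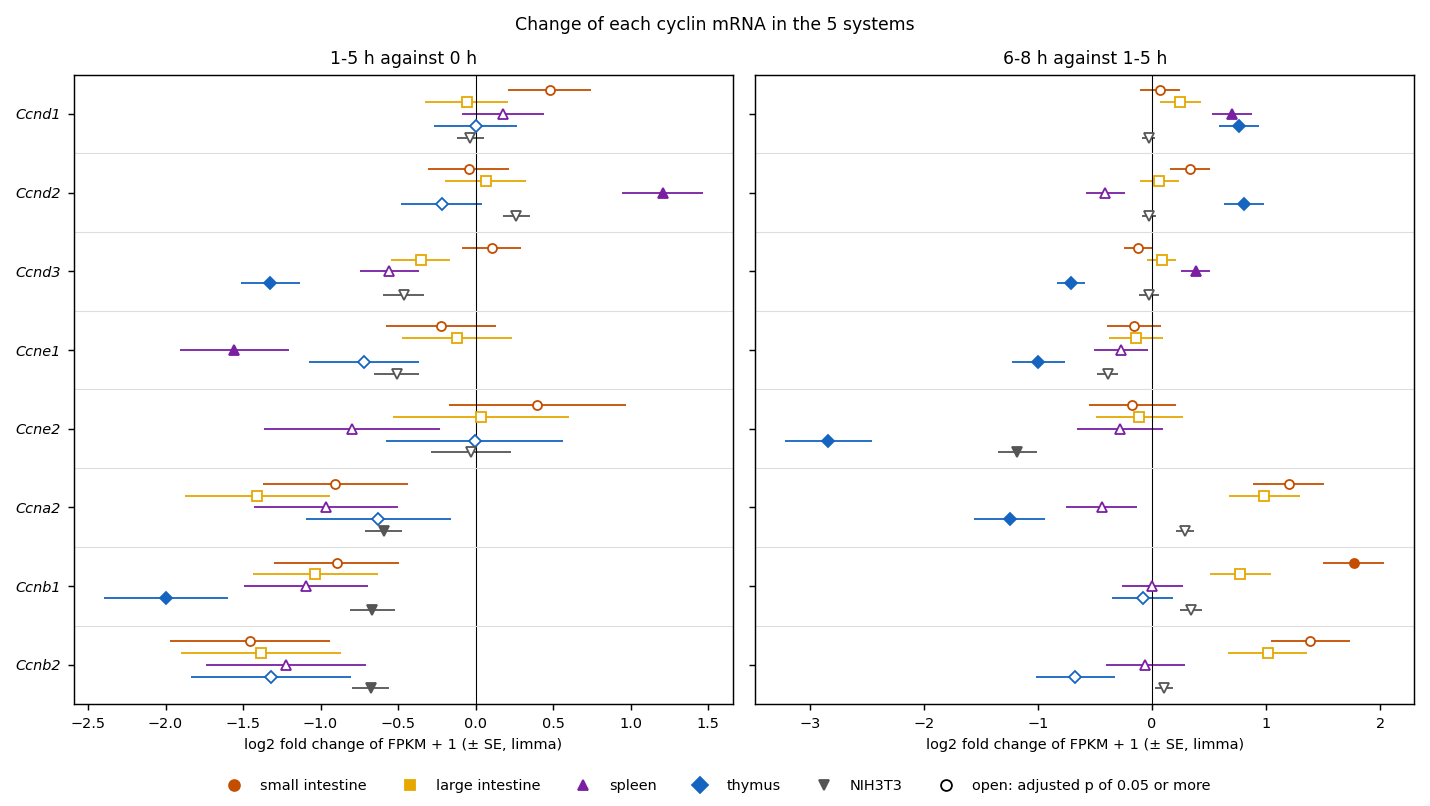
Log2 fold change of FPKM + 1 with its standard error for the 8 genes in the 5 systems, at 1 to 5 h against 0 h (left) and at 6 to 8 h against 1 to 5 h (right). Filled points have an adjusted p below 0.05. On the right, Ccnb1 of small intestine lies at 1.77 and Ccne2 of thymus at -2.84.

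By 24 h the S and M phase cyclins stood far below 0 h in thymus and spleen. In thymus 7 of the 8 genes were called, where 45% of all genes were. Ccna2, Ccnb1 and Ccnb2 were lower by 4.21 ± 0.60 (adjusted p = 6.34e-06), 3.54 ± 0.52 (adjusted p = 7.79e-06) and 4.61 ± 0.67 (adjusted p = 7.06e-06) than at 0 h, and Ccnd1 was higher by 0.92 ± 0.35 (adjusted p = 0.0344). Beside Ccnd3, Ccne1 fell by 2.56 ± 0.46 and Ccne2 fell by 2.73 ± 0.73 there. The median of all genes in this comparison was 0.15. The 24 h thymus library is the one with enterocyte transcripts. This thymus library held Ccnd1 at 15.4 FPKM and small intestine at 24 h held it at 17.9, and the part of the admixture in the Ccnd1 value was not tested. Thymocyte markers were at 199 FPKM in sum at 24 h, against 1430 at 0 h. In spleen 4 were called (20.8% of all genes), with falls of 2.80 ± 0.60 (adjusted p = 0.00231) for Ccna2, 2.11 ± 0.66 (adjusted p = 0.0267) for Ccnb2, 1.57 ± 0.52 (adjusted p = 0.033) for Ccnb1 and 1.80 ± 0.46 (adjusted p = 0.00757) for Ccne1. The spleen B cell sum was 289 at 24 h, against 2206 at 0 h, and the sum of 7 erythroid genes 281, against 16887. Ccnb1 in spleen was not called with a pseudocount of 0.1 (adjusted p = 0.0685), and Ccnd2, higher by 0.84 ± 0.34, was called in a fit of spleen alone (0.0186) and without the 3 libraries noted above (0.0267).

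NIH3T3 at 24 h was lower in Ccne2 by 2.21 ± 0.33 (adjusted p = 0.0017), in Ccna2 by 0.81 ± 0.15 (adjusted p = 0.00551) and in Ccne1 by 0.74 ± 0.19 (adjusted p = 0.0225) than at 0 h. Its Ccnb2 differed by 0.21 ± 0.16 and Ccnb1 by -0.29 ± 0.19, neither called. Values at 24 h and 0 h are single libraries assumed to vary like those within windows, so these comparisons have no replicate check, and every comparison with 0 h in a system shares that 1 library.

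The counts of called cyclins are read against the share of all tested genes called in either direction. At 1 to 5 h against 0 h, limma called 2 of 8 in thymus, where 3.68% of all genes were called, 2 in spleen (5.43%) and 3 in NIH3T3 (2.16%). It called 0 in small intestine (0.237%) and 0 in large intestine (1.39%), with 2 and 3 at an unadjusted p under 0.05. At 6 to 8 h against 1 to 5 h the counts were 6 in thymus (32.1%), 2 in spleen (27.8%), 1 in NIH3T3 (2.3%), 1 in small intestine (0.518%) and 0 in large intestine (0.498%, 3 unadjusted). The spleen count is near its background. At 24 h against 0 h they were 7 in thymus (45%), 4 in spleen (20.8%), 3 in NIH3T3 (11%), 0 in small intestine (0.184%, 2 unadjusted) and 0 in large intestine (0.253%, 3 unadjusted). For 9 to 12 h against 6 to 8 h in NIH3T3 limma called 0 of 8 (2 unadjusted) and 0% of all genes, with 587 genes at an unadjusted p under 0.05. The difference between lymphoid organs and intestines was called for 1 of 8 at 1 to 5 h against 0 h (0.731% of all genes) and 5 of 8 at 6 to 8 h against 1 to 5 h (29.8%). Between spleen and thymus it was called for 3 of 8 (9.93%). Some of these shares hung on single libraries. Leaving out 1 library at a time, the genes called at 6 to 8 h numbered 2 to 184 in small intestine, against 59 with all libraries, 19 to 529 in large intestine, against 59, 0 to 469 in NIH3T3, against 239, and 2128 to 4094 in spleen, against 3281. At 1 to 5 h they numbered 132 to 502 in large intestine, against 165, 230 to 777 in thymus, against 457, and 90 to 328 in NIH3T3, against 224. The difference between lymphoid organs and intestines at 1 to 5 h was called for 36 to 147 genes, against 73, and that between spleen and thymus at 6 to 8 h for 501 to 1212, against 991.

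The order of the levels was set by the means of the 8 libraries at 1 to 8 h. Ccnd1 averaged 71.5 FPKM in NIH3T3, 34.1 in spleen, 28.7 in large intestine, 14.6 in small intestine and 10.1 in thymus. Ccnd2 ran from 53.0 in spleen over 34.5 in NIH3T3, 24.7 in thymus and 23.5 in small intestine to 19.8 in large intestine. Ccnd3 was 102 in thymus, 44.5 in spleen, 32.2 in NIH3T3, 24.6 in large and 15.8 in small intestine. Ccne1 was 22.1 in NIH3T3, 7.63 in thymus, 3.05 in spleen, 2.18 in small and 1.69 in large intestine, whereas Ccne2 was 13.98 in thymus, 8.96 in small intestine, 8.92 in NIH3T3, 4.90 in large intestine and 2.21 in spleen. The first place of thymus in Ccne2 rests on its 1 h library: without it the mean was 8.39, below small intestine and NIH3T3. No other mean moved by over 1.5 times when 1 of its 8 libraries was left out.

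Cyclin A2 averaged 67.2 FPKM in NIH3T3, 46.3 in thymus, 13.7 in spleen, 13.1 in small and 7.84 in large intestine. Cyclin B1 averaged 13.4 FPKM in NIH3T3, 3.79 in thymus, 3.21 in small intestine, 1.75 in spleen and 1.20 in large intestine. Cyclin B2 was highest in thymus at 28.0 FPKM, with 10.8 in NIH3T3, 9.13 in spleen, 7.54 in small and 4.50 in large intestine. Tissues were tested in pairs, and NIH3T3, which had its own fit, was not tested against them. Neighbours that did not differ by test were spleen and large intestine in Ccnd1 (0.22 ± 0.12), thymus and small intestine in Ccnd2 (0.03 ± 0.12) and in Ccne2 (-0.24 ± 0.26), spleen and small intestine in Ccne1, Ccna2, Ccnb1 and Ccnb2, and large and small intestine in Ccne1. Over all pairs, 7 of 8 were called between large and small intestine (68.2% of all genes), 4 between spleen and small intestine (84.2%), 6 between thymus and small intestine (84.9%), 7 between spleen and large intestine (80.6%), 7 between thymus and large intestine (81.1%) and 8 between thymus and spleen (63.2%). Such shares are common among all genes in these tissues.

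The partners of the cyclins were read from 7 lists. The kinases Cdk1, Cdk2, Cdk4 and Cdk6 gave 3 falls of 4 in thymus at 6 to 8 h against 1 to 5 h (Cdk2 -1.11, Cdk1 -0.97, Cdk6 -0.64). Of all genes in that comparison 32.1% were called in either direction, and 1674 of 12426 were called lower. The list median was -0.80 beside 0.00 for all genes. No kinase was called in the intestines or spleen at 6 to 8 h against 1 to 5 h. Set against the intestines, the change of the kinases in spleen and thymus was lower for 4 of 4 (Cdk1 -1.41). For this difference 29.8% of all genes were called in either direction, and 1312 of 9980 were called lower. In NIH3T3 at 24 h against 0 h 11% of all genes were called in either direction, and 561 of 10385 were called lower. Cdk2, Cdk4 and Cdk1 fell there by 0.69 ± 0.17, 0.49 ± 0.13 and 0.45 ± 0.12.

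Among 6 tested CDK inhibitors of 7 in thymus, Cdkn1a rose by 3.86 ± 0.37 at 1 to 5 h, and at 6 to 8 h 2 rose (Cdkn1a 0.84, Cdkn2b 0.54) and 2 fell (Cdkn2c -0.96, Cdkn1b -0.54). The shares of all genes called were 3.68% and 32.1%. Cdkn1a was the 1 inhibitor of 5 called in spleen at 1 to 5 h, with 5.41 ± 0.37 (5.43% of all genes), and the 1 of 4 in NIH3T3, with 1.20 ± 0.12 (2.16%). In the intestines Cdkn1a changed by 1.11 in small (adjusted p = 0.36) and 1.41 in large intestine (adjusted p = 0.0554), and no inhibitor was called there. The change of Cdkn1a at 1 to 5 h was higher by 3.38 ± 0.37 in spleen and thymus than in the intestines.

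In thymus at 6 to 8 h 32.1% of all genes were called in either direction, and 1674 of 12426 were called lower. Some upstream regulators fell there. These were 6 of 13 in the Rb and E2F family, with E2f1 at -1.74 and its partner Tfdp1 at -1.07, and 5 of 9 in the MuvB, B-Myb, FoxM1 and NF-Y list, with Mybl2 at -1.45, Nfyb at -0.99 and Foxm1 at -0.71. Their medians were -0.53 and -0.42. In spleen 27.8% of all genes were called in either direction, and 1447 of 11791 were called lower. Of the 2 lists 1 of 12 and 3 of 9 fell there. In small intestine 0 of 11 and 0 of 8 were called. Of the CDK activating and inhibiting enzymes 4 of 9 fell in thymus, among them the Cdk1 inhibitory kinase gene Pkmyt1 (-1.19). Beside them stand the same 32.1% of all genes called and 1674 of 12426 called lower.

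Of 11 cyclin ubiquitination genes 2 rose in small intestine at 6 to 8 h, where 0.518% of all genes were called in either direction and 44 of 11392 called higher. Cdc20, the activator of the anaphase promoting complex, rose by 1.49 ± 0.30 and Ccnf by 1.02 ± 0.24 (adjusted p = 0.0187 and 0.0478). The list median was 0.18 beside -0.03 for all genes, and without the 8 h small intestine library 2 of all genes were called. In thymus (32.1% of all genes) 1 of 11 rose and 2 fell, including Fbxo5 (-1.47) and Ccnf (-0.82). At 24 h in thymus 6 of 11 fell and 1 rose, where 45% of all genes were called, with Cdc20 at -4.23. Of the other cyclins, Ccng2 was higher by 1.14 ± 0.21 in large intestine and lower by 1.03 ± 0.21 in spleen at 1 to 5 h against 0 h, and the difference between lymphoid organs and intestines was called (-1.10 ± 0.21).

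The genes whose course was most like each cyclin's were named from 9024 genes by Pearson's r over all 54 libraries, each system centred on its own mean. The libraries share systems and hours, so r is a description. Ccna2 was most like Mki67 (0.95), Top2a (0.95) and Kif11 (0.95), Ccnb2 like Cdca3 (0.91), Knstrn (0.90) and Nek2 (0.90), and Ccnb1 like Nek2 (0.88), Cdca2 (0.88) and Aurka (0.88). Ccne2 went with Pcna (0.89), Wdhd1 (0.86) and Rbbp4 (0.85), and Ccne1 with Uhrf1 (0.83), Mcm6 (0.82) and Chaf1b (0.82). Ccnd3 was nearest to Metrn (0.83), Maz (0.82) and Agfg2 (0.81), Ccnd1 to Lgmn (0.81), Gusb (0.81) and Serpina3n (0.79), and Ccnd2, with the weakest likeness, to Naf1 (0.62), Sar1a (0.61) and Tmem123 (0.60). Among the members, r was 0.87 for Ccna2 with Ccnb2, 0.80 for Ccnb1 with Ccnb2, 0.76 for Ccna2 with Ccnb1 and 0.75 for Ccne1 with Ccne2. Ccnd1 gave r between -0.45 and 0.15 with the other 7.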

How the data were processed

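RNA was sequenced in 54 libraries, 10 of each of 4 C57B6 tissues and 14 of NIH3T3. Per the labels' protocols, tissues were kept in RNAlater and extracted in Trizol, and polyadenylated RNA went into non-directional Illumina TruSeq libraries, so reads of a gene and an antisense partner cannot be told apart. The submitters' processing notes name mm10, TopHat2 2.1.0 and Cufflinks 2.1.1. The authors deposited 1 table of FPKM for 13611 genes. The unit is the one Cufflinks gives and fits the values. Total fragments per library are unknown here, and single values carry no counting interval. Relative depth could be read roughly from the steps of the lowest values, with 9.76% to 32% of low genes at the commonest ratio. The median SD of log2 values within a window was 0.14 in NIH3T3, 0.19 in thymus and small intestine, 0.20 in spleen and 0.23 in large intestine.

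Windows were 0, 1 to 2, 3 to 5, 6 to 8, 9 to 12 (NIH3T3) and 24 h, each with its own mean. Limma 3.58.1 in R 4.3.3 tested log2(FPKM + 1) with a variance trend, two-sided, on genes with a mean of at least 1 FPKM in the system, or in all 4 tissues for differences between tissues. All 40 tissue libraries entered 1 model (20 residual degrees of freedom), and the cell line was fitted alone (8). The Benjamini-Hochberg adjustment ran over all genes tested, with a threshold of 0.05. A pseudocount of 1 understates changes of low genes. No label says whether each hour is another animal or culture, and the p-values then measure only how far these libraries spread, which may be technical. The code was tested on simulated data.

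All 8 cyclins were tested in every comparison, but not every change is printed. List genes were drawn from up to 4 per list and comparison by smallest adjusted p, and the 3 genes most like each cyclin were named. The members and lists were chosen with earlier results of these data known. Positions and promoters are from RefSeq, GRCm38.p6, the assembly mm10 names, and 13027 symbols matched. Figures were drawn with matplotlib 3.10.9. Alternatives were another pseudocount, no filter, quantile normalization, separate fits per tissue, other windows, libraries left out and the hour as a block. Other windows were run for changes within a system, not for differences between tissues. Leaving single libraries out of the mean levels was chosen after seeing the data.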

Additional observations from a re-analysis of the deposited data

Results flagged for a closer look

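For 9 results the change differed between tissues by a test of the difference itself, with limma and Benjamini-Hochberg adjustment over all genes tested. At 1 to 5 h against 0 h, the change of Ccnd3 in spleen and thymus minus that in the intestines was -0.82. At 6 to 8 h against 1 to 5 h, the same difference was 0.57 for Ccnd1, -1.42 for Ccne2, -1.93 for Ccna2, -1.31 for Ccnb1 and -1.57 for Ccnb2. In that window, the change in spleen minus that in thymus was -1.21 for Ccnd2, 1.09 for Ccnd3 and 2.56 for Ccne2. Of these, the differences at 6 to 8 h were called in every case of leaving out 1 library (32 for the first kind, 16 for the second), and that of Ccnd3 at 1 to 5 h was lost in 10 of 20. None of these differences was run with 3 to 5 h alone as the earlier libraries, a setting that took calls away within thymus and NIH3T3.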

How the results depend on the processing

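Of 2904 alternative values of single cyclins, 0 reversed a called direction, 73 lost a call, 48 gained one and 92 moved without a call. The count of called cyclins stayed within 1.5 times in 332 of 363 cases. At 1 to 5 h against 0 h, thymus gave 1 in place of 2 with a pseudocount of 0.1 and 1 in a fit of its own, and 4 with 1 to 8 h as the irradiated libraries. Spleen gave 1 in place of 2 in its own fit, and NIH3T3 5 in place of 3 with 1 to 8 h. At 6 to 8 h, with 3 to 5 h as the earlier libraries, thymus gave 3 in place of 6 and NIH3T3 0 in place of 1, and small intestine gave 2 in place of 1 without the 1 h and 2 h large intestine and 6 h spleen libraries. Leaving out single libraries gave 0 to 2 in small intestine, 0 to 1 in large intestine, 1 to 2 in spleen and 0 to 3 in NIH3T3 at 6 to 8 h, 1 to 4 in NIH3T3 at 1 to 5 h, and 0 to 1 for spleen and thymus minus intestines at 1 to 5 h. The causes were not tested.

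The median correlation of deviations between 2 tissues at the same hour was 0.00187 to 0.0525. Single hours lay between -0.127 (large intestine and thymus) and 0.324 (spleen and thymus). These values cannot show whether tissues of the same hour came from the same animal. With the hour as a replicate block, the differences between tissues gave 1, 5 and 3 called cyclins, as without it. For the levels it gave 6 in place of 7 between large and small intestine and 5 in place of 4 between spleen and small intestine.

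Beside leaving out single libraries, the following settings moved the count of all genes called by over 1.5 times. With a pseudocount of 0.1 it became 57 for 27 in small intestine at 1 to 5 h, 47 for 21 in small intestine at 24 h and 6 for 59 in large intestine at 6 to 8 h. With no filter it became 145 for 224 in NIH3T3 at 1 to 5 h, 113 for 239 in NIH3T3 at 6 to 8 h, 2 for 0 in NIH3T3 at 9 to 12 h and 1518 for 991 in spleen minus thymus at 6 to 8 h. With quantile normalization it became 16 for 27 in small intestine at 1 to 5 h, 14 for 59 in small intestine at 6 to 8 h, 11 for 21 in small intestine at 24 h, 850 for 457 in thymus at 1 to 5 h, 120 for 224 in NIH3T3 at 1 to 5 h, 164 for 73 in spleen and thymus minus intestines at 1 to 5 h and 1586 for 991 in spleen minus thymus at 6 to 8 h. With separate fits it became 5 for 59 in small intestine at 6 to 8 h, 10 for 21 in small intestine at 24 h, 14 for 165 in large intestine at 1 to 5 h, 0 for 59 in large intestine at 6 to 8 h, 2 for 30 in large intestine at 24 h, 246 for 640 in spleen at 1 to 5 h and 242 for 457 in thymus at 1 to 5 h. Without the 3 libraries set aside it became 41 for 27 in small intestine at 1 to 5 h, 132 for 59 in small intestine at 6 to 8 h, 33 for 21 in small intestine at 24 h, 382 for 165 in large intestine at 1 to 5 h, 9 for 59 in large intestine at 6 to 8 h, 91 for 30 in large intestine at 24 h and 111 for 73 in spleen and thymus minus intestines at 1 to 5 h. With 3 to 5 h as the earlier libraries it became 7 for 59 in small intestine at 6 to 8 h, 2 for 59 in large intestine at 6 to 8 h, 1651 for 3281 in spleen at 6 to 8 h, 2104 for 3992 in thymus at 6 to 8 h and 0 for 239 in NIH3T3 at 6 to 8 h. With 1 to 8 h as the irradiated libraries it became 1024 for 640 in spleen at 1 to 5 h, 1518 for 457 in thymus at 1 to 5 h and 464 for 224 in NIH3T3 at 1 to 5 h.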
